A study of Mus musculus with 5 samples.

Results

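The killer lectin-like receptors are a family of membrane proteins with a C-type lectin-like domain, and 7 of their genes were followed through the cell types of leukaemic mouse bone marrow: Klrd1, Klrk1, Klre1, Klrb1c, Klrc1, Klrc2 and Klrg1. They are 7 of the 28692 genes counted in each library. Each of 5 eight-week-old C57BL/6J mice received 1000 pre-B acute lymphoblastic leukaemia cells carrying BCR-ABL1 through the tail vein, without irradiation. Marrow was taken from 1 mouse right after the transplant (day 0) and from 1 mouse each at days 3, 6, 9 and 12, so that day 0 had received leukaemia cells too and no untreated mouse was measured. Flushed marrow was pooled with cells freed from the crushed femurs and tibias by collagenase and DNase, red cells were lysed, and single cells were sequenced from the 3′ end of their transcripts in droplets. From day 0 to day 12 the libraries held 35329966, 38827241, 40601920, 43554233 and 33425695 unique molecular identifiers (UMIs, each standing for 1 captured transcript).

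Barcodes with at least 500 UMIs were kept as cells. They numbered 6680, 5474, 6506, 7604 and 5871, or 32135 in all, and carried 84.5%, 81.8%, 80.2%, 82.0% and 81.1% of the UMIs of their library. Of their 31551 different barcodes, 574 were kept in more than 1 library. Between 44 and 73 barcodes were shared by any pair of libraries, beside 43.6 to 68.9 given by chance from the numbers kept. The pair furthest above chance was days 3 and 6, with 68 beside 48.3. With 1 mouse per day there are no replicates, so no test between days was made, and a difference between days cannot be told apart from a difference between mice. Levels are UMIs of a gene per 10000 UMIs of a group of cells. Intervals are exact 95% Poisson or binomial intervals and cover counting error only.

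These receptors are best known from natural killer (NK) cells, which weigh signals from inhibitory and activating receptors before they kill a target cell, and some T cells use the same receptors. Klrd1 encodes CD94, which reaches the cell surface paired with an NKG2 chain: with the product of Klrc1 (NKG2A) it forms an inhibitory receptor and with that of Klrc2 (NKG2C) an activating one, both for the nonclassical MHC molecule Qa-1. Klrk1 encodes the activating receptor NKG2D, Klre1 a chain that pairs with Klri1 or Klri2, Klrb1c the NK1.1 antigen of C57BL/6 mice, and Klrg1 an inhibitory receptor for cadherins that is carried by mature NK cells and effector T cells.

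All 7 genes lie on mouse chromosome 6 and all 7 were matched by identifier in the GENCODE vM21 annotation of the build GRCm38. From the centromere outwards these are Klrg1 (ENSMUSG00000030114, chr6:122270596-122282882, minus strand), Klrb1c (ENSMUSG00000030325, chr6:128778485-128789215, minus strand), Klre1 (ENSMUSG00000050241, chr6:129577905-129585827, plus strand), Klrd1 (ENSMUSG00000030165, chr6:129591782-129598775, plus strand), Klrk1 (ENSMUSG00000030149, chr6:129610323-129623864, minus strand), Klrc2 (ENSMUSG00000052736, chr6:129647496-129660689, minus strand) and Klrc1 (ENSMUSG00000030167, chr6:129666015-129678973, minus strand). The last 5 of these sit within 101.1 kb, with Klrb1c 788.7 kb before Klre1 and Klrg1 6.496 Mb before Klrb1c. Some of the genes are hard to tell apart from the 3′ end. In the last 500 bases of their transcripts, 43.5% of all stretches of 50 bases in Klrc1 also occur in Klrc2 or its neighbour Klrc3, 15.2% of those in Klrc2 occur in Klrc1 or Klrc3, and 17.9% of those in Klrb1c occur in Gm44511, which overlaps it on the same strand, or in Klrb1a, Klrb1b or Klrb1-ps1. For Klrd1, Klrk1, Klre1 and Klrg1 the share was 0%, so the counts of Klrc1, Klrc2 and Klrb1c are the less certain ones.

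Promoters (250 bases before to 50 bases after a transcript start) were found for 5 of the 7 genes in the RefSeq table for GRCm38.p6. The promoters of Klrc1, Klrc2 and Klre1 are shown because the levels of these genes moved together across cell types, that of Klrk1 for comparison, and that of Klrc3 for its likeness to Klrc2. Capitals mark TGTGGT, the core letters of RUNX motifs, or ACCACA, which is the same on the other strand, and TGANTCA, the AP-1 motif. They lie at chr6:129678924-129679223 (Klrc1, minus strand), chr6:129660507-129660806 (Klrc2, the first of 2 starts, minus strand), chr6:129643239-129643538 (Klrc3, minus strand), chr6:129577963-129578262 (Klre1, the first of 2 starts, plus strand) and chr6:129623815-129624114 (Klrk1, minus strand).
Klrc1: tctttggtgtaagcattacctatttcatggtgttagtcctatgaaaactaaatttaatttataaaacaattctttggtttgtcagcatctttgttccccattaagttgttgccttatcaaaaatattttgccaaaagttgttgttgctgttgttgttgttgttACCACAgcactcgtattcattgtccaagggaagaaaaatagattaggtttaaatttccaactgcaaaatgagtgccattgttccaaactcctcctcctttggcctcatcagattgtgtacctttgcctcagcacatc
Klrc2: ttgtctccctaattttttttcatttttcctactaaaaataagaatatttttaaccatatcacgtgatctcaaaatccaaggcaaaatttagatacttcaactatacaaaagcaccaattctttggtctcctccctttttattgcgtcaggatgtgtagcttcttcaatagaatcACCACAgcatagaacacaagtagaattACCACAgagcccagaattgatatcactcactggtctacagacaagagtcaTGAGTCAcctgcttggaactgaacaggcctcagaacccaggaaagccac
Klrc3: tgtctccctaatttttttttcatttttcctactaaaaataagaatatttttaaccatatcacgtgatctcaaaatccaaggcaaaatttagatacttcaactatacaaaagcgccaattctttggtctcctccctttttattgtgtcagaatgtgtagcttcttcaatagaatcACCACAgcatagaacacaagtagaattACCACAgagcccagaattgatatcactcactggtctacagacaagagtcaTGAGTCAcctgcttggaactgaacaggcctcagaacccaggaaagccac
Klre1: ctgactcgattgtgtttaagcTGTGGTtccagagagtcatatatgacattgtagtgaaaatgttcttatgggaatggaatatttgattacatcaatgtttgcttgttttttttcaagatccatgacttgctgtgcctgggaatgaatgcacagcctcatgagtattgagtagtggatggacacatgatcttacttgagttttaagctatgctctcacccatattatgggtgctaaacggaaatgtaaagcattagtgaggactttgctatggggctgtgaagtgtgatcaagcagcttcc
Klrk1: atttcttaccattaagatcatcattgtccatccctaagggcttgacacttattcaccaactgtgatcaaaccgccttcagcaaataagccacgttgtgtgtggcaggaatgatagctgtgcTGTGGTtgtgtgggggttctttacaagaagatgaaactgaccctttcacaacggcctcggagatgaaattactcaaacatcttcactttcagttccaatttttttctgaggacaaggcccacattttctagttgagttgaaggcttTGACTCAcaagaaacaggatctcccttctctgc
The promoters of Klrc2 and Klrc3 aligned with 296 identical bases, 3 mismatched bases and 2 gap bases (98.3% identical), and those of Klrc1 and Klrc2 were 51.4% identical. The promoters of Klrc1 and Klre1 were 53.9% identical, or 48.6% with the second start of Klre1, and those of Klrc1 and Klrk1 49.6%. On either strand, TGTGGT was found in a promoter of 5 of the 5 genes, beside 16.8% of all 32851 promoters in the table, and for Klre1 in 1 of its 2 promoters. TGANTCA was found in Klrk1 and Klrc2, beside 7.81% of all promoters. The T-box letters TCACAC were in Klre1 alone (14.5% of all promoters) and the ETS letters ACTTCC in Klrb1c alone (23.8%). The STAT motif TTCNNNGAA was in none of the 5 genes (8.30% of all promoters), nor was the CREB motif TGACGTCA (1.79%). These are matches of letters, and factor binding was not measured.

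Cells were clustered without any killer lectin-like receptor gene, so that the classes do not rest on the genes described here. NK-like cells, named from their markers, numbered 103, 32, 60, 72 and 68 from day 0 to day 12, or 335. The summed level of the 14 NK markers in them was 253, 247, 252, 253 and 243 UMIs per 10000, led by Ccl5 at 144, and none of the 14 was at 0. The 14 T cell markers summed to 18.1, 10.2, 11.7, 9.55 and 10.9 in NK-like cells, led by Trbc1 at 4.50, with Trat1 at 0. T-like cells numbered 601, 181, 300, 346 and 194, or 1622, and fell into 826 CD8 T-like cells, 98 CD4 T-like cells and clusters of 548 and 150 cells that are called by a leading gene, Trdc and Cxcr6. Trdc encodes the constant region of the delta chain of the gamma-delta T cell receptor. In the Trdc-led cluster the NK markers summed to 110 UMIs per 10000, of which Ccl5 gave 86.5. Of the remaining T and NK cells, 294 in an Sh2d2a-led cluster and 258 in other clusters were left unnamed, since their leading genes were of another type. The Sh2d2a-led cluster had 9 T and 7 NK markers. The 258 cells had a median of 5802.5 UMIs against 2503 in NK-like cells. They pool unlike clusters of 160, 52 and 46 cells, which are read below as a single group. Against the other T and NK cells, the 160 were led by Gm5483 and the neutrophil marker S100a8, and the 46 by Cd74 and Ms4a6c. The 52 were led by the histone genes Hist1h2ap and Hist1h2ae, and against all cells by Gzma and Ncr1. They had 10 T and 9 NK markers. Outside the T and NK cells, 298 cells in a Cd209a-led cluster stayed unnamed as well.

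Among 15 ranked classes and clusters, NK-like cells had the highest mean level of each of the 7 genes. A class was read in the mice where it had at least 20 cells. Orders and highest means below are within these 15. The 7 genes summed to 39.7 ± 3.98 UMIs per 10000 in NK-like cells (mean and SD over 5 mice, each of another day), 12.1 ± 1.51 in Trdc-led T-like cells and 7.92 ± 1.21 in the Sh2d2a-led cluster. Other unnamed T and NK cells came next with 7.70 ± 2.15 and overlapped with the Sh2d2a-led cluster. Cxcr6-led T-like cells had a sum of 6.93 ± 3.61 (4 mice), CD8 T-like cells 2.91 ± 1.21, plasmacytoid dendritic-like cells 2.91 ± 0.554 and neutrophil-like cells 0.0773 ± 0.0116. The levels of the 5 mice in NK-like cells lay above those in the class with the next highest mean without overlap for all genes but Klrg1. Neutrophil-like cells, which should lack these genes, give a level of background in cells. Free RNA, read from barcodes with at most 100 UMIs, was higher. It carried the 7 genes at 1.76, 0.91, 1.16, 1.17 and 1.15 UMIs per 10000 from day 0 to day 12. Low levels of single genes are to be read beside both. Erythroid-like cells, stromal or endothelial-like cells and the other unnamed cells outside the T and NK clusters were not ranked. Over all libraries the sum was 0.423 in 86 erythroid-like cells, 0.158 in 59 stromal or endothelial-like cells and 0.218 in 1638 other unnamed cells.

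**Figure D1:**
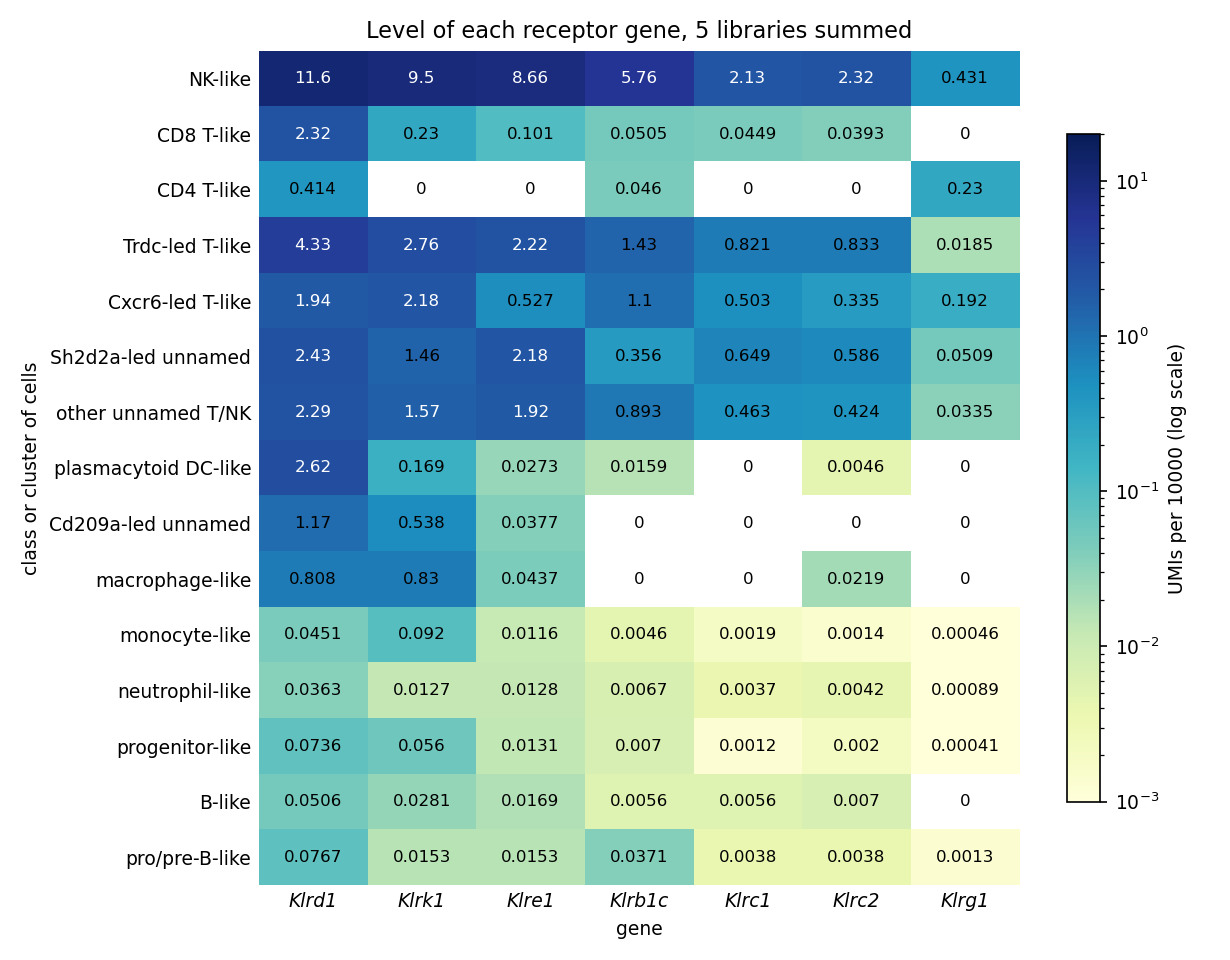
Level of each gene (columns, UMIs per 10000 on a log colour scale, 5 libraries summed) in each class or cluster of cells (rows), with the value printed. Klrd1 is at 11.6 in NK-like cells, at 4.33 in Trdc-led T-like cells and at 2.62 in plasmacytoid dendritic-like cells, where Klrc1 is at 0.

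Klrd1, the partner of the NKG2 chains, reached 14.3, 10.7, 9.48, 9.55 and 12.9 UMIs per 10000 in NK-like cells from day 0 to day 12, or 11.4 ± 2.14. Trdc-led T-like cells followed with 5.13, 3.98, 3.74, 3.89 and 4.87 (4.32 ± 0.630). Every NK-like value lay above every Trdc-led value, and every Trdc-led value lay above every value in plasmacytoid dendritic-like cells (2.67 ± 0.577). Next in order came the Sh2d2a-led cluster (2.58 ± 0.530), CD8 T-like cells (2.32 ± 0.828), other unnamed T and NK cells (2.29 ± 0.245) and Cxcr6-led T-like cells (2.03 ± 1.46, 4 mice). From plasmacytoid dendritic-like cells down to Cxcr6-led T-like cells, no neighbours in this order differed beyond their spread. Lower means were found in the Cd209a-led cluster (1.36 ± 0.698), macrophage-like cells (0.859 ± 0.424, 3 mice) and CD4 T-like cells (0.539 ± 0.735, 3 mice). Here too the ranges of neighbours overlapped. Free RNA carried Klrd1 at 0.421 to 0.847, so the means of macrophage-like and CD4 T-like cells were near or within that range. Progenitor-like (0.0756 ± 0.0166), pro/pre-B-like (0.0725 ± 0.0274), B-like (0.0516 ± 0.0262), monocyte-like (0.0446 ± 0.0103) and neutrophil-like cells (0.0366 ± 0.00889) were at the bottom, with overlapping ranges between neighbours.

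Klrc1, the inhibitory partner of Klrd1, was at 2.44, 1.24, 2.43, 2.06 and 2.02 UMIs per 10000 in NK-like cells (2.04 ± 0.488). Klrc2, the activating partner, was at 2.49, 1.81, 2.15, 2.43 and 2.44 in the same cells (2.26 ± 0.285). The lowest value of both was that of day 3, with 13 UMIs of Klrc1 and 19 of Klrc2 in 32 cells. For Klrc1 the next in order were Trdc-led T-like cells (0.787 ± 0.177), the Sh2d2a-led cluster (0.666 ± 0.303), other unnamed T and NK cells (0.612 ± 0.550) and Cxcr6-led T-like cells (0.488 ± 0.590, 4 mice), whose ranges overlapped. Klrc2 had the same order, with 0.806 ± 0.211, 0.647 ± 0.172, 0.430 ± 0.244 and 0.313 ± 0.425 (4 mice), and the ranges of these neighbours overlapped. The highest of these values, 1.482 of Klrc1 in other unnamed T and NK cells and 1.29 in Cxcr6-led T-like cells, lay above the lowest NK-like one. CD8 T-like cells had lower means, with 8 UMIs of Klrc1 (0.0578 ± 0.0461) and 7 of Klrc2 (0.0397 ± 0.0487) in 826 cells, and their ranges overlapped with those of Cxcr6-led T-like cells. Plasmacytoid dendritic-like cells held 0 UMIs of Klrc1, which allows a level of up to 0.00683, and 2 UMIs of Klrc2. Among the remaining classes the highest mean was 0.0114 for Klrc1 (B-like cells) and 0.0195 for Klrc2 (pro/pre-B-like cells), and neighbours overlapped.

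Klrk1 (NKG2D) was at 11.6, 8.50, 8.35, 10.9 and 6.79 UMIs per 10000 in NK-like cells (9.22 ± 1.97). Trdc-led T-like cells had 3.45, 2.27, 2.58, 2.81 and 2.24 (2.67 ± 0.497), and every NK-like value lay above all of them. Cxcr6-led T-like cells (2.33 ± 1.23, 4 mice) did not differ from Trdc-led T-like cells beyond their spread, nor did other unnamed T and NK cells (1.49 ± 0.659) from Cxcr6-led ones or the Sh2d2a-led cluster (1.37 ± 0.454) from these. Macrophage-like cells came next at 0.867 ± 0.188 (3 mice), then the Cd209a-led cluster at 0.585 ± 0.258 and CD8 T-like cells at 0.288 ± 0.237. Plasmacytoid dendritic-like cells had 0.179 ± 0.0285 and monocyte-like cells 0.0918 ± 0.0291, and in these steps the ranges of neighbours overlapped. By its means Klrk1 was thus lower in CD8 T-like and plasmacytoid dendritic-like cells than in macrophage-like cells, and Klrd1 higher. Free RNA carried Klrk1 at 0.169 to 0.262, so the CD8 T-like and plasmacytoid dendritic-like means were near that level. The means of progenitor-like (0.0539 ± 0.0176), pro/pre-B-like (0.0286 ± 0.0393), B-like (0.0223 ± 0.0230) and neutrophil-like cells (0.0127 ± 0.00267) were lowest, and CD4 T-like cells held 0 UMIs (up to 0.138).

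Klre1 was at 9.57, 8.98, 7.90, 8.39 and 8.27 UMIs per 10000 in NK-like cells (8.62 ± 0.655), a narrow range over the mice. The Sh2d2a-led cluster (2.24 ± 0.553), Trdc-led T-like cells (2.15 ± 0.593) and other unnamed T and NK cells (1.98 ± 0.852) overlapped with each other and lay below all NK-like values. Cxcr6-led T-like cells at 0.443 ± 0.418 (4 mice) were below the other unnamed T and NK cells without overlap. CD8 T-like cells (0.141 ± 0.12) overlapped with Cxcr6-led ones, and the highest mean of the remaining ranked classes was 0.0565 (macrophage-like cells), with overlapping neighbours down to monocyte-like cells. In CD4 T-like cells 0 UMIs of Klre1 were counted (up to 0.138).

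Klrb1c (NK1.1) was at 5.84, 5.54, 5.64, 5.33 and 6.37 UMIs per 10000 in NK-like cells (5.75 ± 0.395), with no overlap with the next class. Trdc-led T-like cells (1.38 ± 0.293), Cxcr6-led T-like cells (1.12 ± 0.625, 4 mice) and other unnamed T and NK cells (0.868 ± 0.168) overlapped in that order, as did the Sh2d2a-led cluster (0.373 ± 0.275) with the last of them. CD4 T-like cells (0.116 ± 0.20, 3 mice) rested on 1 UMI and CD8 T-like cells (0.0636 ± 0.0597) on 9 UMIs. The highest further mean was 0.0504 (pro/pre-B-like cells), and in the Cd209a-led cluster and macrophage-like cells 0 UMIs were counted (up to 0.0161 and 0.0656).

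Klrg1 was the rarest of the 7 genes, with 74 UMIs in all cells. NK-like cells held 6, 6, 7, 7 and 12 of them from day 0 to day 12, or 0.249, 0.573, 0.395, 0.370 and 0.714 UMIs per 10000 (0.460 ± 0.183). Cxcr6-led T-like cells (0.219 ± 0.245, 4 mice) and CD4 T-like cells (0.183 ± 0.165, 3 mice) overlapped with NK-like cells and with each other. The highest further mean was 0.0435 (the Sh2d2a-led cluster), and CD8 T-like cells held 0 UMIs (up to 0.0168). No difference between days was detectable for Klrg1 at this depth.

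**Figure D2:**
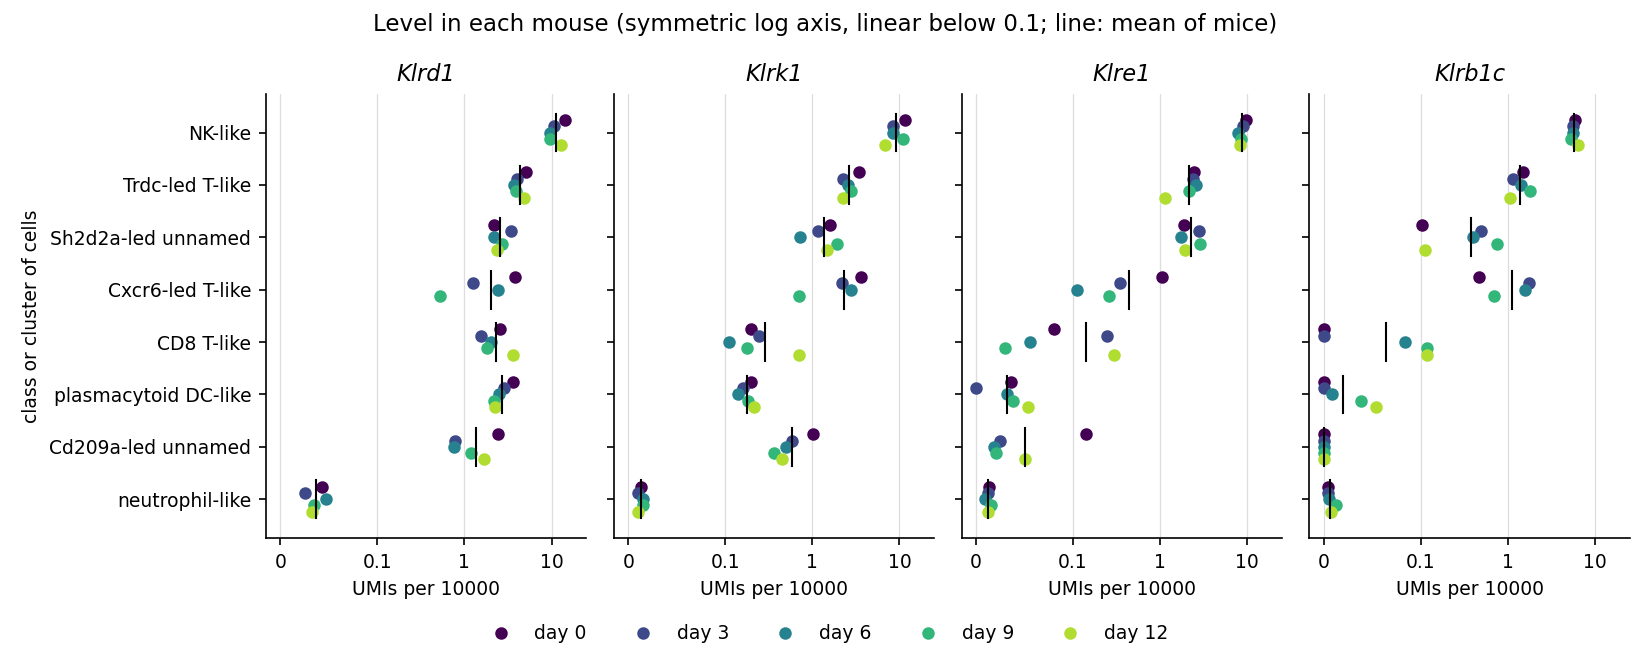
Level of Klrd1, Klrk1, Klre1 and Klrb1c (UMIs per 10000, log axis that is linear below 0.1) in each mouse (points, coloured by day) in 8 classes or clusters with at least 20 cells, with the mean of the mice as a line. All 5 NK-like points lie to the right of all other points, and plasmacytoid dendritic-like cells reach 2.20 to 3.59 for Klrd1 but at most 0.213 for Klrk1.

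NK-like cells were set against all T-like cells of the same mouse, which asks how far the family separates these classes. The summed level of the 7 genes was 46.5, 37.3, 36.3, 39.1 and 39.5 UMIs per 10000 in NK-like cells and 7.19, 7.23, 5.99, 6.77 and 8.21 in T-like cells. NK-like cells were above T-like cells in 5 of 5 mice, by a factor of 6.47, 5.17, 6.07, 5.77 and 4.81, and the classes did not overlap. Leaving out cells above a limit on the mitochondrial share, set for each library (7.59%, 7.07%, 9.12%, 9.04% and 2.50% of UMIs), left 16 of 194 T-like cells at day 12 and raised the ratio there to 11.2. With the limit of day 0 in all libraries it was 5.45, from 159 T-like cells. Counting the unnamed T and NK clusters as NK-like, an alternative chosen after seeing the data, lowered the ratios to 2.36, 2.34, 2.30, 2.09 and 2.65. A two-sided exact sign-flip permutation test over the 5 mice gave p = 0.0625, which is the smallest p that 5 mice allow, so the design cannot reach 0.05. The ratio ran from 3.14 to 4.17 for Klrd1, from 4.25 to 7.81 for Klrk1, from 6.64 to 10.4 for Klre1 and from 5.74 to 11.2 for Klrb1c. It ran from 2.88 to 7.40 for Klrc1 and from 4.52 to 7.90 for Klrc2. Klrd1 thus had the narrowest gap between the classes on average and Klre1 the widest among the 6 genes with at least 100 summed UMIs. All 6 were past 1.5-fold higher in NK-like cells in each of the 5 mice, beside 3.46% of the genes that passed the same filter (151 of 4370). Klrg1 did not pass that filter, with 54 summed UMIs, and its ratio ran from 3.88 to 31.8. Exact p was 0.0625 for each of the 7 genes, with 5 of 5 mice higher in NK-like cells.

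Later days were set against day 0 in NK-like cells to see how the receptors went along the course of the leukaemia. The summed level was highest at day 0 (46.5, from 1122 UMIs) and lower at days 3, 6, 9 and 12, at 37.3, 36.3, 39.1 and 39.5 (391, 644, 740 and 663 UMIs). The ratio to day 0 was 0.803 (0.714 to 0.902), 0.782 (0.709 to 0.862), 0.840 (0.765 to 0.923) and 0.849 (0.770 to 0.936). With the unnamed T and NK clusters counted as NK-like the levels were 16.9, 16.9, 13.8, 14.2 and 21.8, so that day 12 was highest, and the ratios were 1.0, 0.813, 0.837 and 1.29. The lower sum at days 3 and 12 thus depends on which clusters count as NK cells. Named NK-like cells were 103 of 296, 32 of 89, 60 of 159, 72 of 205 and 68 of 138 cells of this wider class. Its mix of cells therefore differed by day, and the part of this mix in its levels was not tested. All comparisons to day 0 share that library, so a high value in that 1 mouse lowers all of them. The median ratio of all genes with at least 20 summed UMIs was 0.922, 0.973, 0.959 and 1.01 in the same order. Of the 6 receptor genes that passed that filter, 0 were past 1.5-fold higher at any day and 1 was past it lower at each day. With the unnamed clusters counted in, 0 were lower at any day, and 0, 0, 1 (Klrg1) and 2 (Klrb1c and Klrc1) were higher. Among all genes of that wider class with 20 summed UMIs 14.7%, 11.6%, 11.8% and 11.4% were lower and 13.5%, 12.2%, 13.5% and 14.8% higher. In NK-like cells as named, 20.9%, 15.7%, 16.1% and 13.2% of all genes were that much lower at days 3, 6, 9 and 12, and 8.66%, 9.9%, 8.82% and 12.3% that much higher. The share of receptor genes called lower was therefore near that of all genes.

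The gene called differed by day. At day 3 it was Klrc1, at 1.24 against 2.44 UMIs per 10000 (ratio 0.508, 0.256 to 0.937), from 13 and 59 UMIs. The share of NK-like cells with a Klrc1 UMI was not lower there, at 31.25% against 28.16% (25% against 24.14% after thinning). Klrd1 was called at days 6 and 9, at 9.48 and 9.55 against 14.3 (0.661, 0.547 to 0.798, and 0.667, 0.554 to 0.80), but was back at 12.9 at day 12 (0.897, 0.753 to 1.07). Klrk1 was called at day 12, at 6.79 against 11.6 (0.587, 0.468 to 0.733). With every cell thinned to 1000 UMIs the gene called at day 3 was Klrd1 in place of Klrc1 and none was called at day 9, while the calls at days 6 and 12 were the same genes. Klre1 ran from 7.90 to 9.57 and Klrb1c from 5.33 to 6.37 over the 5 mice, so neither came near the fold used. Over the 7 genes the median ratio to day 0 was 0.746, 0.863, 0.913 and 0.897. NK-like cells also differed between days in depth, with a median of 2238, 3007.5, 2802, 2479.5 and 2294 UMIs, and in the summed level of 9 neutrophil markers, which was 182, 207, 227, 242 and 269 UMIs per 10000 (none at 0), led by S100a8 at 81.3. The 14 T cell markers, given above, were highest in them at day 0 too. The part of these in the levels by day was not tested beyond thinning, which gave ratios of 0.953, 0.813, 0.889 and 0.954 for the sum at days 3, 6, 9 and 12.

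**Figure D3:**
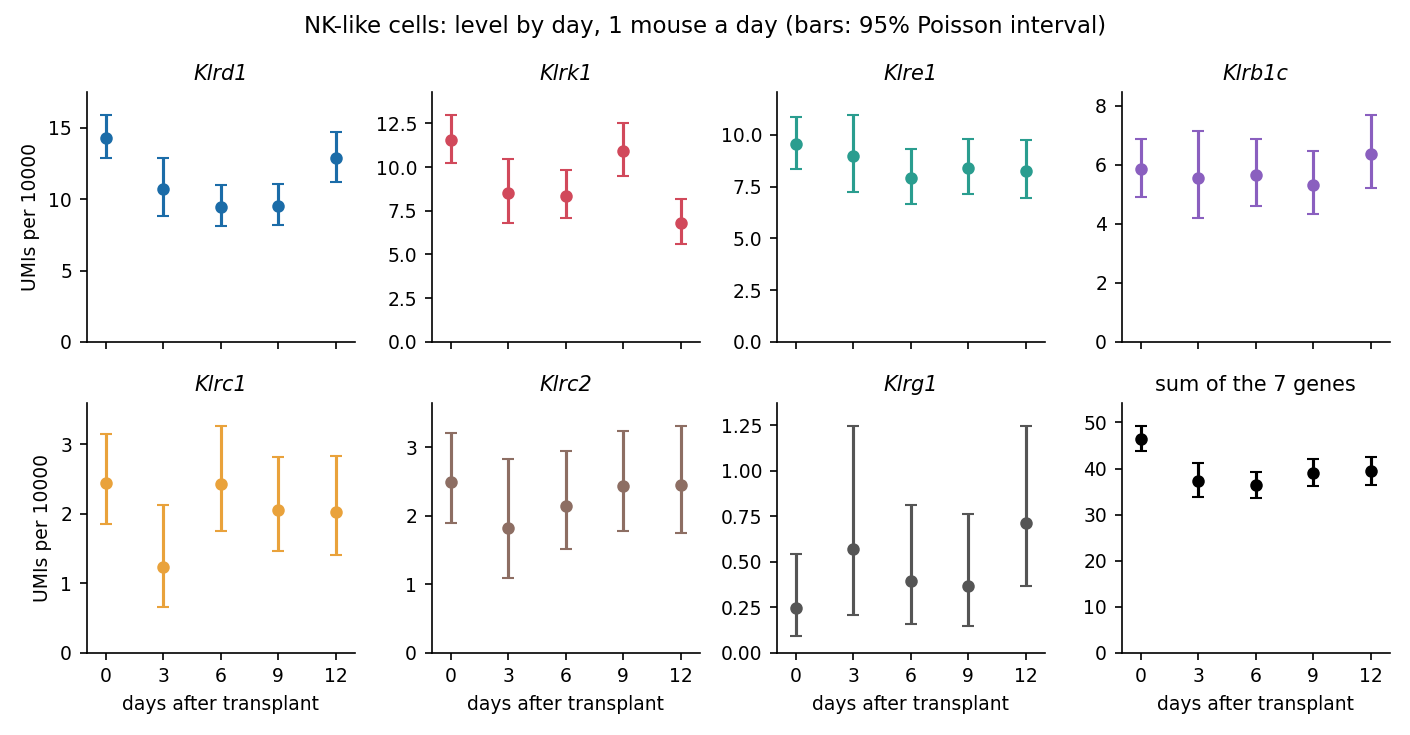
Level of each gene and of their sum in NK-like cells (UMIs per 10000, axis from 0) against the day after transplant, 1 mouse a day, with 95% Poisson intervals. Klrk1 is at 11.6 at day 0 and 6.79 at day 12, and Klrb1c stays between 5.33 and 6.37.

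Outside NK and T cells, Klrd1 stood out in plasmacytoid dendritic-like cells. These 892 cells held 1149 Klrd1 UMIs, more than the 1023 in NK-like cells, and 23.3% of all 4922 in the libraries (22.2 to 24.5%). By day their share was 14.9%, 36.6%, 30.9%, 26.0% and 6.72%, and at days 0 and 12 NK-like cells held more (346 and 216 UMIs against 200 and 42). From day 0 to day 12 the level was 3.58, 2.87, 2.47, 2.20 and 2.24 UMIs per 10000, from 200, 306, 313, 288 and 42 UMIs. It was highest at day 0 and lower at each later day, with ratios to day 0 of 0.801 (0.668 to 0.962), 0.689 (0.575 to 0.827), 0.612 (0.509 to 0.737) and 0.624 (0.436 to 0.874). Klrd1 was thus past 1.5-fold lower at days 9 and 12, as were 12.3% and 16% of all genes with at least 20 summed UMIs in these cells, and not at days 3 and 6, where 12.3% and 11.7% were. Klrk1 was at 0.197, 0.160, 0.142, 0.183 and 0.213 in the same cells, beside 0.262, 0.183, 0.172, 0.186 and 0.169 in free RNA and 0.0127 ± 0.00267 in neutrophil-like cells. The ratio of Klrk1 to day 0 was 0.809, 0.720 and 0.928 at days 3, 6 and 9, with wide intervals (0.437 to 2.098 at day 9). Klrc1 was at 0 and Klrc2 at 0.00456, so these 2 partners of CD94 were all but missing from the counts. In the same cells the 14 NK markers summed to 0.520, 0.544, 0.900, 1.43 and 0.532 UMIs per 10000, led by Ccl5 at 0.560, and Prf1, Eomes, Cma1 and Serpinb9b were at 0. Free RNA carried Klrd1 at 0.421 to 0.847 UMIs per 10000, below the level in these cells at every day. The 7 markers of plasmacytoid dendritic cells summed to 89.7, 81.5, 73.8, 71.7 and 82.5, led by Ly6d at 27.0. The mitochondrial limits of each library, lowest at day 12, lowered the day 12 level from 2.24 to 0.803 (ratio to day 0 0.222). With the limit of day 0 in all libraries it was 2.16, and the ratios were 0.771, 0.664, 0.608 and 0.597, so that day 6 was past the fold too. Thinning to 1000 UMIs raised it to 3.03 and gave ratios of 0.798, 0.587, 0.520 and 0.779, so that days 6 and 9 were past the fold and day 12 was not. Averaging over cells gave 0.676 at day 9, which is within the fold.

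Klrd1 in CD8 T-like cells was at 2.57, 1.55, 2.03, 1.79 and 3.63 UMIs per 10000 from day 0 to day 12, highest at day 12 and lowest at day 3. Its ratio to day 0 was 0.602, 0.787 and 0.697 at days 3, 6 and 9 and 1.41 (1.04 to 1.89) at day 12, from 62 and 193 UMIs. Klrk1 in these cells was at 0.20, 0.248, 0.111, 0.176 and 0.703, and the highest value, at day 12, came from 12 UMIs against 15 at day 0 (ratio 3.51, 1.5 to 8.04). Free RNA carried Klrk1 at 0.262, 0.183, 0.172, 0.186 and 0.169, above these cells at days 0, 6 and 9. Trdc-led T-like cells had a sum of the 7 genes of 14.5, 10.9, 11.9, 12.6 and 10.7. Ratios of the sum to day 0 were 0.755, 0.824, 0.869 and 0.742 there and 0.718, 0.814, 0.722 and 1.70 in CD8 T-like cells, so the classes parted in direction at day 12 alone. That difference depends on cells rich in mitochondrial RNA. With the limit of day 0 (7.59% of UMIs) set in all libraries, an alternative chosen after seeing the data, 59 of 88 CD8 T-like cells were left at day 12 and their sum was 0.920 of day 0 (0.636 to 1.30), with Klrd1 at 0.973 (0.664 to 1.39) and 1 UMI of Klrk1. Trdc-led T-like cells then had 0.687 (0.585 to 0.804), from 81 of 86 cells. Under the limits set library by library, of which that of day 12 is the lowest at 2.50%, 0 of 88 CD8 T-like and 12 of 86 Trdc-led cells were left. Klre1 in Trdc-led T-like cells was at 2.47, 2.42, 2.61 and 2.12 up to day 9 and at 1.14 at day 12 (ratio 0.462, 0.288 to 0.716, from 26 and 103 UMIs). The sum in Cxcr6-led T-like cells was 11.2, 6.58, 7.47, 2.44 and 8.47, from clusters of 42, 25, 28, 38 and 17 cells. In the Cd209a-led cluster Klrd1 was at 2.42, 0.774, 0.762, 1.19 and 1.67, and again highest at day 0. Klrk1 in that cluster was at 1.02, 0.580, 0.502, 0.364 and 0.454.

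Taking all cells together, 11571 UMIs of the 7 genes were counted, of which 30.8% lay in NK-like and 24.3% in T-like cells. By day, NK-like cells held 36.6%, 21.0%, 28.3%, 26.0% and 43.5% of them, highest at day 12 and lowest at day 3. Klrd1 had the smallest part of its UMIs in NK-like cells, 20.8% (19.7 to 21.9%), and did so at every day (25.8%, 13.4%, 16.6%, 16.4% and 34.6%). Over all libraries the part was 33.4% of 2510 UMIs for Klrk1, 35.5% of 530 for Klrc1, 38.1% of 535 for Klrc2, 40.4% of 1891 for Klre1, 45.7% of 1109 for Klrb1c and 51.4% of 74 for Klrg1 (39.4 to 63.1%), and the order of these differed by day. Free RNA, read from barcodes with at most 100 UMIs, carried Klrd1 at 0.847, 0.421, 0.654, 0.570 and 0.481 UMIs per 10000 and Klrk1 at 0.262, 0.183, 0.172, 0.186 and 0.169. Both were above the level in neutrophil-like cells, where Klrd1 was at 0.0433, 0.0250, 0.0475, 0.0342 and 0.0330.

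**Figure D4:**
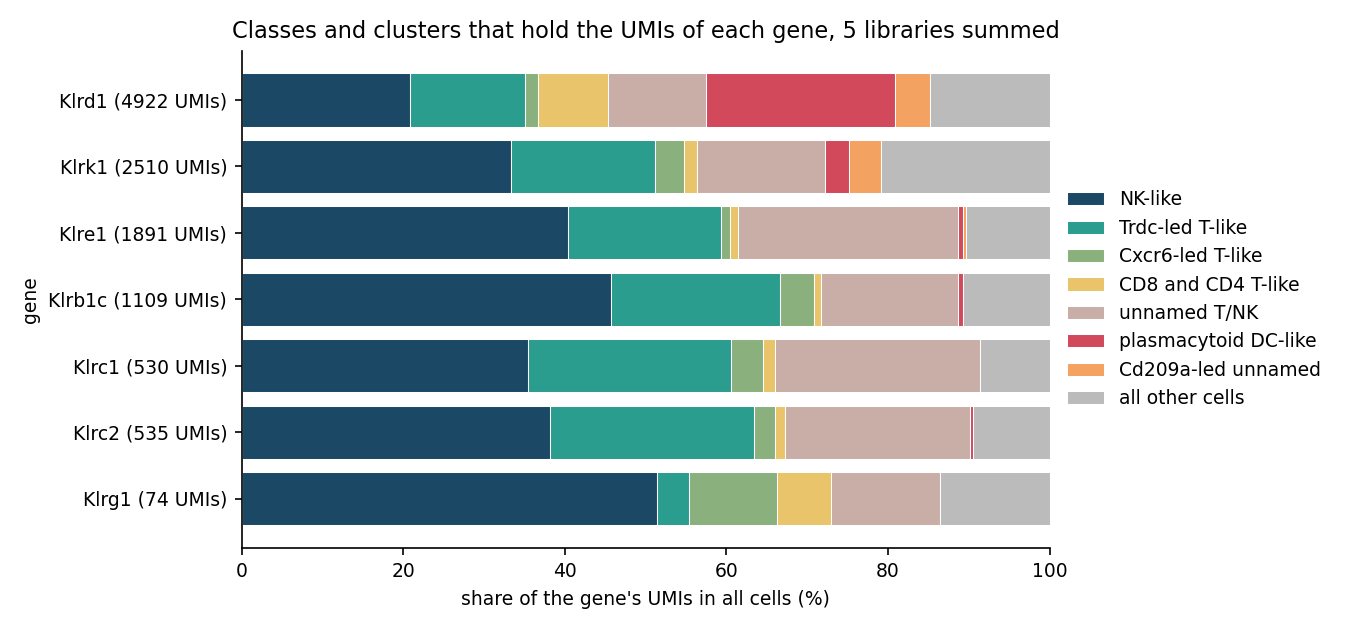
Share of the UMIs of each gene in all cells (%, 5 libraries summed) that lies in each class or cluster of cells, as stacked bars. NK-like cells hold 20.8% of Klrd1 and 45.7% of Klrb1c, and plasmacytoid dendritic-like cells 23.3% of Klrd1.

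Combinations of receptors in single cells were compared after each cell had been thinned at random to 1000 UMIs, since deeper cells show more genes. This left 308 NK-like, 529 Trdc-led T-like, 689 CD8 T-like, 817 plasmacytoid dendritic-like and 16382 neutrophil-like cells and left out 27, 19, 137, 75 and 1061. Median depths before thinning were 2503, 2784, 1917, 4666 and 3260 UMIs. An NK-like cell had a UMI of 2.67 of the 7 genes on average, 54.9% had at least 3 and 3.57% had none. Without thinning these were 4.0 genes, 87.2% and 0.896%. Thinned means by day were 2.76, 2.79, 2.61, 2.61 and 2.65 genes, so they hardly moved with time. In Trdc-led T-like cells the mean was 0.989 genes, 10.6% had at least 3 and 42.9% had none (1.93 genes, 32.7% and 21.9% without thinning). CD8 T-like and plasmacytoid dendritic-like cells mostly showed none of the genes (79.3% and 76.9%) or a single gene (19.7% and 22.5%). Without thinning 64.8% and 37.6% of these cells showed none. Neutrophil-like cells gave a background, with any of the genes in 0.824% of thinned and 3.37% of unthinned cells.

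**Figure D5:**
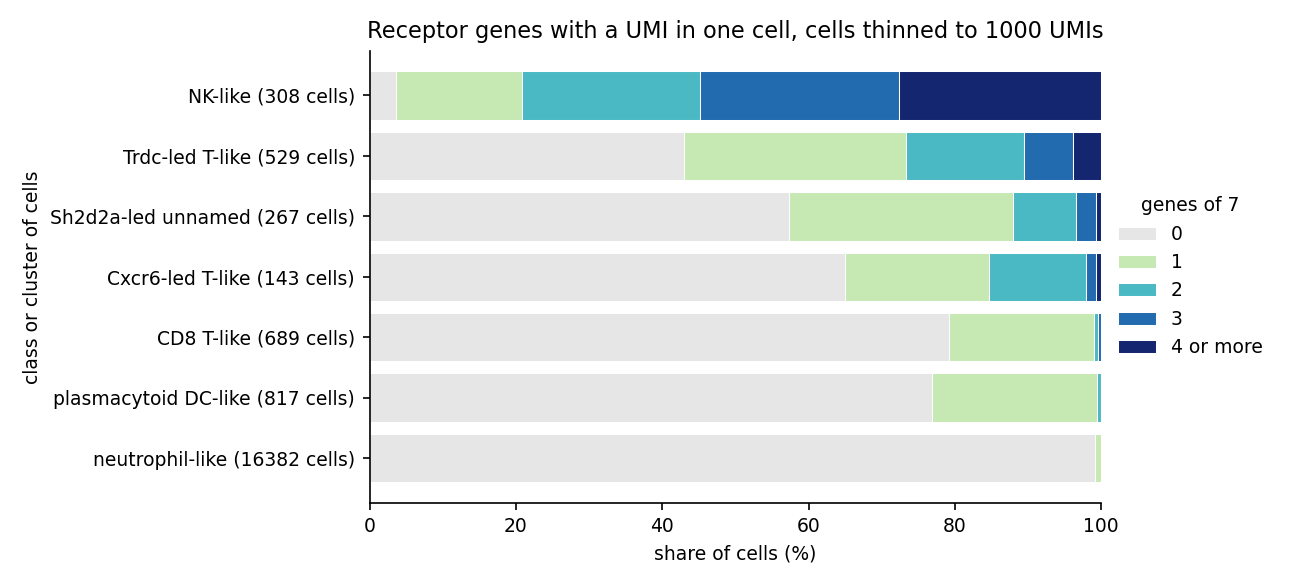
Share of cells (%) with a UMI of 0, 1, 2, 3 or at least 4 of the 7 genes, after thinning each cell to 1000 UMIs, in 7 classes or clusters with their numbers of cells. NK-like cells have at least 3 genes in 54.9% of cells and Trdc-led T-like cells in 10.6%.

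CD94 needs an NKG2 chain, so cells with a Klrd1 UMI were asked for one of Klrc1 or Klrc2. Of 183 thinned NK-like cells with Klrd1, 75 had one (41.0%, 33.8 to 48.5%), and of 125 without Klrd1 50 had one (40.0%). The difference between these shares was not tested. Klrc1 and Klrc2 were seen together in 9 of the 183 cells. In Trdc-led T-like cells 32 of 166 had one (19.3%, 13.6 to 26.1%), beside 14.9% of cells without Klrd1. CD8 T-like cells with Klrd1 had one in 2 of 136 cells (1.47%, 0.179 to 5.21%) and plasmacytoid dendritic-like cells in 0 of 180, which allows a share of cells with a UMI of up to 1.67%. Without thinning these shares were 58.9%, 34.9%, 2.23% and 0.187% in the order NK-like, Trdc-led, CD8 T-like and plasmacytoid dendritic-like. Any other of the 7 genes was found in 93.4% of NK-like and 51.8% of Trdc-led T-like cells with Klrd1, but in 5.15% of CD8 T-like and 2.78% of plasmacytoid dendritic-like ones (97.2%, 74.1%, 6.32% and 10.3% without thinning). Klrd1 was thus the lone gene of the 7 in most Klrd1-positive CD8 T-like and plasmacytoid dendritic-like cells at this depth.

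Levels were also set side by side over 77 units, each a class or cluster of at least 20 cells in 1 of 5 libraries, on the scale of log2(UMIs per 10000 + 0.1). The units of a library share its depth and free RNA, and those of a class its cells' nature, so the correlations are a description. Pearson's r was 0.98 between Klrc1 and Klrc2, 0.97 between Klre1 and Klrc2 and 0.95 between Klre1 and Klrc1. Klrc1 and Klrc2 share part of their 3′ sequence, as given above, and Klre1 does not share its own with either. Klrd1 was closest to Klrk1 (0.86) and at 0.70 to 0.78 with Klre1, Klrb1c, Klrc1 and Klrc2. Klrg1 was at 0.48 to 0.69 with the rest of the family. Outside the family, the genes most like Klrd1 were Cd7 (0.92), Ctsw (0.84) and Fyn (0.82). Cd7, a surface protein of T and NK cells, was at 8.18 UMIs per 10000 in plasmacytoid dendritic-like and at 4.92 in NK-like cells. Klrk1 was most like Arl4d (0.88), Xcl1 (0.86) and Ctsw (0.85), and Klre1 was most like Xcl1 (0.93), Arl4d (0.91) and Eomes (0.91). Klrc1 was most like Xcl1 (0.91), Samd3 (0.91) and Arl4d (0.90), and Klrc2 like Xcl1 (0.92), Arl4d (0.92) and Samd3 (0.90). Xcl1 encodes a chemokine of NK and CD8 T cells and Eomes a T-box factor of NK cells. Klrb1c was most like Arl4d (0.91), Ifitm10 (0.89) and Tbx21 (0.89), and Klrg1 like Tbx21 (0.75), Khdc1a (0.70) and Serpinb9 (0.69). Tbx21 encodes the T-box factor T-bet. Xcl1, Eomes and Tbx21 are also among the NK markers that named the classes, so likeness to them is partly built in. With Spearman's rank correlation 5 of these 21 pairs of genes were among the closest, so the names depend on the measure.

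Of 22 other killer lectin-like receptor genes in a fixed list, 19 were in the files. Of the 10 with at least 100 summed UMIs, 8 were past 1.5-fold higher in NK-like than in T-like cells in all 5 mice. Among all genes with as many UMIs the share was 3.46%. These UMIs are summed over both classes, so a gene can pass the filter through its NK-like cells alone. For such a gene the direction was fixed by the filter, so the count is a description. Among the activating and inhibitory Ly49 receptors, Klra4 was at 10.1 UMIs per 10000 in NK-like and 0.0941 in T-like cells, Klra8 at 7.68 and 0.0966, and Klra9 at 3.16 and 0.129. Klra4 was at 8.41, 13.2, 10.6, 11.8 and 8.04 in NK-like cells from day 0 to day 12 and did not follow the sum of the 7 genes, which was highest at day 0. Klra7 reached 5.40 in NK-like and 2.70 in Trdc-led T-like cells. Klri2, a partner of Klre1, was at 2.54 in NK-like and 0.0520 in T-like cells. The Sh2d2a-led cluster carried Klra4 at 2.84 and Klra8 at 2.01, far above the 0.160 and 0.167 of Trdc-led T-like cells. Klra17 and Klra2 lay outside the rule for naming genes and were chosen after their values were seen: Klra17 was at 1.06 in plasmacytoid dendritic-like cells with 0 UMIs in NK-like cells, and Klra2 at 1.11 in monocyte-like and 0.0681 in NK-like cells.

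Adaptor proteins carry the signal of the activating receptors. Tyrobp (DAP12), which serves Klrc2 and many Ly49 receptors, was at 36.8 UMIs per 10000 in NK-like, 5.31 in T-like and 45.9 in plasmacytoid dendritic-like cells. Hcst (DAP10), which serves Klrk1, was at 10.3 in NK-like and 9.15 in T-like but at 0.966 in plasmacytoid dendritic-like cells. Fcer1g was at 26.1 in NK-like and 4.88 in T-like cells. Of the 13 adaptor and signalling genes in the list, 7, 8, 9 and 9 passed the filter at days 3, 6, 9 and 12. Of these 0, 1, 2 and 0 were past 1.5-fold higher than at day 0 in NK-like cells and 1 was past it lower at each day, beside 8.66% to 12.3% of all genes higher and 13.2% to 20.9% lower. Of 16 genes for ligands, 15 were in the files. H2-T23, which encodes Qa-1, was at 1.42 in NK-like, 1.03 in T-like, 2.42 in plasmacytoid dendritic-like and 0.476 in neutrophil-like cells. Clec2d, which encodes a ligand of the Klrb1 receptors, was at 1.65, 1.62, 1.43 and 0.558 in the same cells. Of 5 ligand genes that passed the filter at each day, 2, 0, 1 and 0 were past 1.5-fold lower than at day 0 in NK-like cells at days 3, 6, 9 and 12, and 0 were higher.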

How the data were processed

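Bone marrow of 5 mice, 1 per day, was measured by droplet single-cell RNA sequencing (10x Genomics 3′ v2). The authors deposited raw UMI counts per gene and barcode, made with Cell Ranger 2.1.1 on mm10 with empty droplets included, and these were used as they are. Barcodes with at least 500 UMIs were kept. Each cell was scaled to 10000 UMIs. Variable genes (the top 1000 of a library, if found in 2 or more libraries, with Klr and listed pathway genes taken out) gave 20 principal components (scikit-learn 1.9.0). Leiden communities at a resolution of 0.6 were then found (leidenalg 0.10.2, igraph 0.11.9) from each cell's 20 closest cells, and the T and NK cells were split once more in the same way. A cluster was named from at least 3 markers of a type. It stayed unnamed if its leading genes were of another type or if types tied. Levels are summed counts of a class per 10000, with Python 3.11.15, NumPy 2.4.6, pandas 2.3.3 and SciPy 1.17.1; promoters were aligned with Biopython 1.88 and figures drawn with matplotlib 3.10.9. Doublets were scored by Scrublet (scanpy 1.11.5), whose own threshold marked 2.32%, 0%, 0.0154%, 0% and 0.0341% of cells and so had not worked in 4 libraries. Doublets were therefore kept, and leaving out the 5% with the highest scores is an alternative chosen after seeing the data. The fold called was 1.5, at 20 summed UMIs between days and 100 between NK-like and T-like cells. Upper limits at 0 use 3 counts. Beside the 7 genes, the text may name genes of 6 hand-written lists (other killer lectin-like receptors, adaptors, ligands, other NK receptors, immature and mature NK cells) with at least 50 summed UMIs in NK-like or T-like cells, and the 3 genes outside the family with the highest Pearson correlation to each of the 7, among genes with 100 UMIs. The members and the lists were chosen with earlier results of these data known. The ratios, the intervals of ratios and counts, the fold calls and the thinning were tested on simulated Poisson counts. The clustering and naming of cells were not. Which annotation release the authors counted against is not stated in the files.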

Additional observations from a re-analysis of the deposited data

How the results depend on the processing

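The summed level of the 7 genes stayed higher in NK-like than in T-like cells in all 55 recomputed ratios (2.094 to 11.22). Of 40 recomputed ratios to day 0, 2 were reversed, both with the unnamed T and NK clusters counted as NK-like (1.0 at day 3 and 1.285 at day 12). The mix of cells in that wider class differed by day, as given above. Of 350 recomputed levels of single genes in NK-like cells 290 kept within the counting interval and 60 did not, 33 of these with the unnamed clusters counted in and 19 with a gate. Of 35 for Klrd1 in plasmacytoid dendritic-like cells 33 did, as did 27 of 28 ratios of it to day 0, added after seeing the data. Asking for 1000 UMIs per cell, averaging over cells or clustering at a resolution of 1.2 moved none of the summed values beyond its interval. Thinning to 1000 UMIs gave a summed NK-like level of 43.93 at day 3 and 43.97 at day 12, ratios to day 0 of 0.9531 and 0.9539, a ratio to T-like cells of 6.15 at day 3, and 40.63, 30, 38.7, 39.48 and 50.18% of the UMIs in NK-like cells; no gene was then past 1.5-fold lower at day 9 (0), and at day 3 it was Klrd1 in place of Klrc1. Clustering with the receptor genes kept gave 49.93 at day 0 and 29.77% of the UMIs at day 9. Leaving out the 5% of cells with the highest doublet scores, a choice made after seeing the data, gave 39.15% at day 0 and 29.2% at day 9. The mitochondrial limit, set for each library at 7.593, 7.074, 9.116, 9.044 and 2.501% from day 0 to day 12, left 30 of 68 NK-like and 16 of 194 T-like cells at day 12 and gave there a ratio of 11.22 and 48.36% of the UMIs. The limit of day 0 in all libraries, chosen after seeing the data, left 68 and 159 cells there, gave 46.14% at day 12 and moved no other summed value. A gate on 6 NK genes planned as an alternative took 0 cells, since all 335 NK-like cells held a UMI of S100a8, and gave no value. Without S100a8, a change chosen after seeing the data, it took 303 cells, 202 of them NK-like, with summed levels of 38.84, 28.36, 25.71, 29.19 and 31.77, ratios to T-like cells of 5.474, 3.925, 4.454, 4.635 and 4.097, ratios to day 0 of 0.662 at day 6 and 0.7517 at day 9, and 25.14, 22.31 and 32.41% of the UMIs at days 0, 6 and 12. Also after seeing the data, the unnamed T and NK clusters were added to the NK-like cells, which gave 16.93, 16.94, 13.77, 14.17 and 21.76 and 49.36, 40.3, 43.7, 50.84 and 54% of the UMIs, ratios to T-like cells of 2.355, 2.344, 2.298, 2.094 and 2.652, and 0 genes lower at any later day but 1 higher at day 9 and 2 at day 12, or to the T-like cells, with ratios of 4.37 at day 3 and 5.14 at day 9. A 2-fold limit called 0 genes lower at days 3, 6, 9 and 12. With no filter beyond 1 UMI 1 gene, Klrg1, was higher at days 3, 6 and 12, from 6, 7 and 12 UMIs against 6. Its intervals held 1 (0.616 to 8.62, 0.457 to 5.725 and 0.998 to 9.33). The shares of all genes called at these limits or after thinning were not computed. Spearman correlation kept 5 of the 21 most alike pairs, and leaving out day 12 kept 17. For all of these the cause was not tested. At 32 to 103 NK-like cells a library, counts of Klrc1, Klrc2 and Klrg1 limit what can be seen by day.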

Other observations

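Other genes of NK cells were read in the same NK-like cells. Of 7 genes listed for immature NK cells 5 passed the filter at each later day, of which 3, 2, 2 and 2 were past 1.5-fold lower than at day 0 and 0 higher. Among all genes with 20 summed UMIs 20.9%, 15.7%, 16.1% and 13.2% were past the fold lower and 8.66%, 9.9%, 8.82% and 12.3% higher. Cd69, an early activation marker, was at 2.15 UMIs per 10000 at day 0 and at 0.477, 0.508, 0.792 and 1.31 at days 3, 6, 9 and 12, so every later mouse was below day 0. Of 8 genes listed for mature NK cells 4, 5, 5 and 4 passed, with 0, 1, 3 and 0 past the fold lower and 0 higher. Of 9 other NK receptors 3, 4, 4 and 3 passed, with 1, 3, 2 and 2 past the fold lower and 1, 1, 0 and 0 higher. Fcgr3, an activating Fc receptor, was at 1.08 at day 0 and at 0.573, 0.452, 0.686 and 0.476 later. Cd160, another receptor of NK and T cells, was at 0.994, 1.53, 0.508, 0.633 and 0.298. Of the other killer lectin-like receptors 10, 11, 10 and 10 passed, with 2, 1, 1 and 1 past the fold higher and 0, 1, 0 and 0 lower. Klra1, an inhibitory Ly49 receptor, was among the higher ones at days 3 and 12, at 1.43 and 2.38 against 0.746. Each day is 1 mouse and all share the day 0 library.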
